A study of Mus musculus with 6 samples.

Results

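The major urinary protein genes of mouse liver were followed through the RNA of 6 liver libraries. The 8 genes Mup1, Mup2, Mup3, Mup7, Mup11, Mup12, Mup20 and Mup21 were chosen by name, and all 8 were found among the 16135 genes of the deposited table. The 3 control libraries came from livers labelled ACSS2-flox, in which Acss2 is floxed. The other 3 came from its hepatocyte-specific knockout (ACSS2-HKO). ACSS2 is the acetyl-CoA synthetase that makes acetyl-CoA from acetate, and the stated purpose of the series was to study it in alcoholic liver disease. Both groups had been fed the Lieber-DeCarli liquid diet with ethanol for 10 days and had then received 1 ethanol binge, so no library without ethanol was compared. Nothing in the sources names the promoter that drove the deletion, the age or the sex of the animals. Whether libraries of 1 genotype came from separate animals is not stated either, so p-values measure only the spread between libraries, which may be technical.

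Major urinary proteins are small secreted lipocalins, barrel-shaped proteins that carry a hydrophobic molecule in a central pocket. Hepatocytes make them, the kidney passes them into the urine, and there they bind and slowly release volatile pheromones. Their genes form a cluster of similar copies, and pulses of growth hormone acting through STAT5, together with glucocorticoid and thyroid hormone, are known to raise their expression, which is usually higher in males. Mup20 encodes darcin, a male urinary protein that attracts females, and Mup1 has also been linked to glucose metabolism.

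The members were first set out by sequence, because copies that share sequence also share fragments. In the GENCODE release 21 annotation of build GRCm38, all 8 genes lie on the minus strand of chromosome 4. Mup7 (60066469 to 60070475), Mup2 (60135932 to 60154289), Mup1 (60498012 to 60501960), Mup11 (60658466 to 60662411) and Mup12 (60737383 to 60741326) lie in the central array of near-identical copies. Mup20 (62050234 to 62054158), Mup3 (62083476 to 62087342) and Mup21 (62147932 to 62150863) lie at its far end. The coding sequences of Mup1, Mup2, Mup7, Mup11 and Mup12 were 98.3% to 99.6% identical to each other. Mup3 was 82.6% to 83.8% identical to those 5 copies and closest to Mup21, at 94.8% identity. Mup20 was closest to Mup11 and Mup18, at 91.3% identity to each. The first coding bases, which encode the signal peptide of these secreted proteins, are shown for 5 members because they make the contrast visible: Mup2 and Mup12 can hardly be told apart, whereas Mup20, Mup21 and Mup3 carry marks of their own. Sequences are from GENCODE and run from the start codon, and capitals mark bases that differ from Mup2 or are added to it.
Mup2: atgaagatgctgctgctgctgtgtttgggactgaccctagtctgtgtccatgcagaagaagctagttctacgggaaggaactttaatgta
Mup12: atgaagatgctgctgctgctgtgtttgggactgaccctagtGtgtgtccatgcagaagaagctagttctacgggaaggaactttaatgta
Mup20: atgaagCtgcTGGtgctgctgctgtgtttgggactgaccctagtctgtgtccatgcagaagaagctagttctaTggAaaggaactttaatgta
Mup21: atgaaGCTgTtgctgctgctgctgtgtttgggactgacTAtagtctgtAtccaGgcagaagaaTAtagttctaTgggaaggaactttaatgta
Mup3: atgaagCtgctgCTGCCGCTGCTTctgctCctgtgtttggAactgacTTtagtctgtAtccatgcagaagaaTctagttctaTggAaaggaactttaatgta
Over this stretch Mup12 differed from Mup2 at 1 position, Mup20 at 6, Mup21 at 11 and Mup3 at 21.

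The share of each transcript that could be told apart from every other gene was then counted. Of all stretches of 100 bases in the Mup3 transcripts, 97.1% occurred in no other gene. The shares were 95.5% for Mup21 and 61.2% for Mup20. Mup12 had 22.5%, Mup11 16.5%, Mup7 12.9%, Mup1 12.8% and Mup2 2.66%. A fragment of Mup3 or Mup21 can thus nearly always be told from the other copies, and one of the 5 central copies often cannot. What the authors' counting did with a fragment that fits several copies is not stated. The row of Mup22, a gene outside the 8 with 0% of such stretches to itself, still held 116 to 861 fragments in each library. That share was counted on a transcript of 861 bases, while the length behind its deposited values was 991 bases. For Mup2 these lengths were 927 and 1074 bases. The shares given here thus need not hold for the gene models that the authors counted on.

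**Figure D1:**
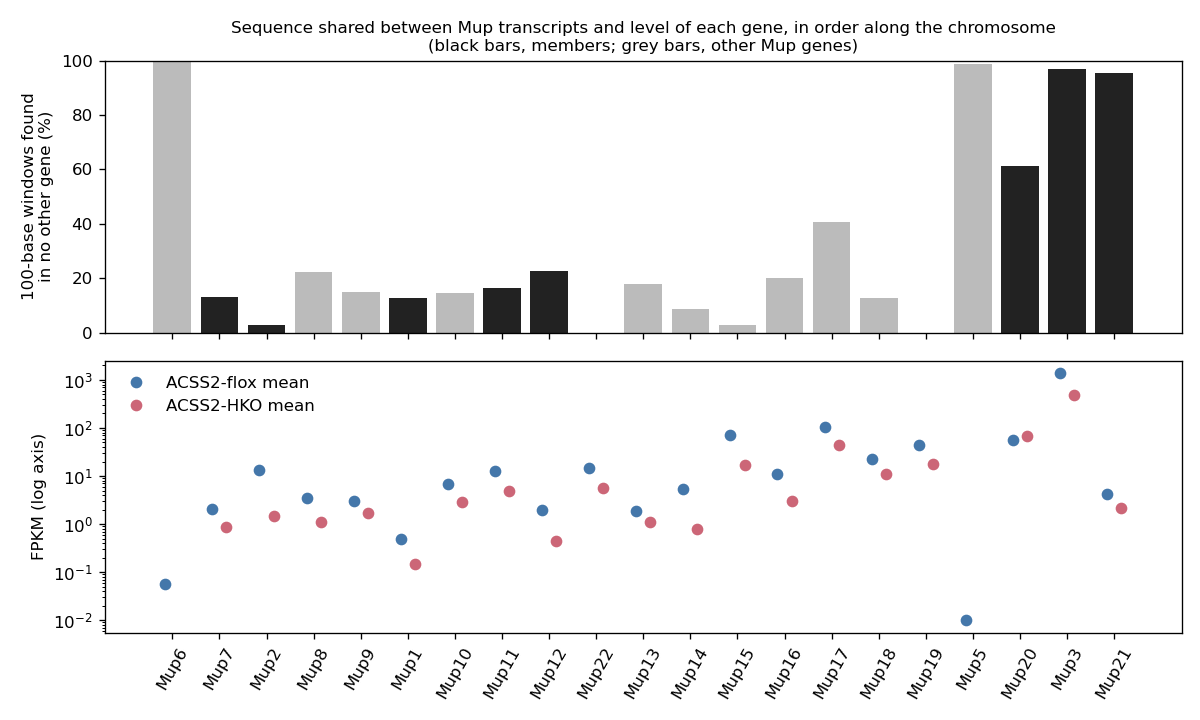
The upper panel covers every Mup gene that is both in the table and in the annotation. It gives the percentage of 100-base stretches of the gene's representative transcript that occur in no other gene. The lower panel gives the mean FPKM of 3 libraries for each genotype on a log axis (a mean of 0 is not drawn), with genes in their order along the chromosome. Mup3 and Mup21 stand at 97.1% and 95.5% in the upper panel, Mup20 at 61.2%, and the 5 other members at 22.5% or less, while Mup3 has the highest level of both genotypes in the lower panel.

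The RefSeq promoters of 5 members were compared (Mup2, Mup3, Mup7, Mup11 and Mup21, each 250 bases before to 50 after the annotated start, GRCm38.p6). The promoters of Mup3 and Mup21 were 92.9% identical over their aligned part, those of Mup2 and Mup11 98.5%, and those of Mup2 and Mup3 76.8%. The stretches that end in the TATA-like letters TATATAA (capitals) are shown for 3 members, since this was the feature they shared most widely.
Mup2, chr4:60139877-60139943, minus strand: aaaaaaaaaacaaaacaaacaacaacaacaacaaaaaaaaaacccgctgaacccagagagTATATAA
Mup3, chr4:62087322-62087388, minus strand: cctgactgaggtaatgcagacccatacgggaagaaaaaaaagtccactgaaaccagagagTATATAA
Mup21, chr4:62150843-62150909, minus strand: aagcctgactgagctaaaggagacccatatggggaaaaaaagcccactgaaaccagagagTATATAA
The letters begin at position -27 from the annotated start in Mup2, -11 in Mup3 and -8 in Mup21. On either strand TATATAA was present in 13 of 14 Mup promoters, among them 4 of the 5 of members, and in 3.24% of all 32851 promoters of the table. TATAAA was present in 0 of the 5 members' promoters, 2 of the 14 and 13.6% of all promoters. The glucocorticoid receptor motif AGAACA matched in 2 of the 5, on the opposite strand of Mup3 and Mup21, against 19.0% of all promoters. The STAT motif TTCNNNGAA (8.3% of all promoters), the C/EBP motif TTGCGCAA (0.18%) and the palindromic HNF1 motif (0.01%) had 0 matches in these 5 windows. TATATAA followed by a further A also holds TATAAA, and the other motifs searched do not contain each other. A match here describes letters in a short window and not a bound site.

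Levels are given as FPKM, the fragments of a gene scaled to its length and to the fragment total of the library. FPKM values of different genes can be compared as levels per length. Whole fragment counts were recovered from these values for 16133 genes, and the library totals ran from 33717125 to 38321306 fragments in the controls and from 35362997 to 39474527 in ACSS2-HKO. Acss2 itself stood at 87.8, 61.5 and 58.5 FPKM in the ACSS2-flox libraries and at 50.6, 38.4 and 45.7 FPKM in the ACSS2-HKO libraries. Its levels did not overlap, with a log2 fold change of -0.60 ± 0.21 (SE) and a limma adjusted p of 0.637. Alb, the albumin gene that marks hepatocytes, stood at 43380 to 59760 FPKM in the controls and 38190 to 42060 FPKM in ACSS2-HKO. The ACSS2-HKO replicate 3 library stood apart in its acute phase and neutrophil genes, and the ACSS2-flox replicate 1 library in the balance of short and long genes: over 879 tested genes of 700 to 1300 bases its median was 0.21 (log2) above the other ACSS2-flox libraries, and over the 8939 other tested genes -0.30. The Mup genes are of such lengths, so results are also given without these libraries where they move.

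Summed over the 8 members, Mup RNA was lower in all 3 ACSS2-HKO libraries than in any of the controls. The sums were 1848, 1281 and 1290 FPKM in the controls and 423, 1047 and 237 FPKM in ACSS2-HKO. Group means were 1473 ± 325 and 569 ± 425 FPKM (SD, n = 3 each), a 2.59-fold lower mean in ACSS2-HKO. The ACSS2-HKO libraries were spread far more widely than the controls, and replicate 2 came close to them. Without ACSS2-HKO replicate 2 the log2 ratio of the means was -2.16 in place of -1.37, and without both ACSS2-flox replicate 1 and ACSS2-HKO replicate 3 it was -0.81. The 8 genes took 0.169%, 0.118% and 0.118% of all fragments in the controls and 0.0395%, 0.0961% and 0.0218% in ACSS2-HKO. In whole liver, fewer cells of a type and less RNA per cell cannot be told apart.

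**Figure D2:**
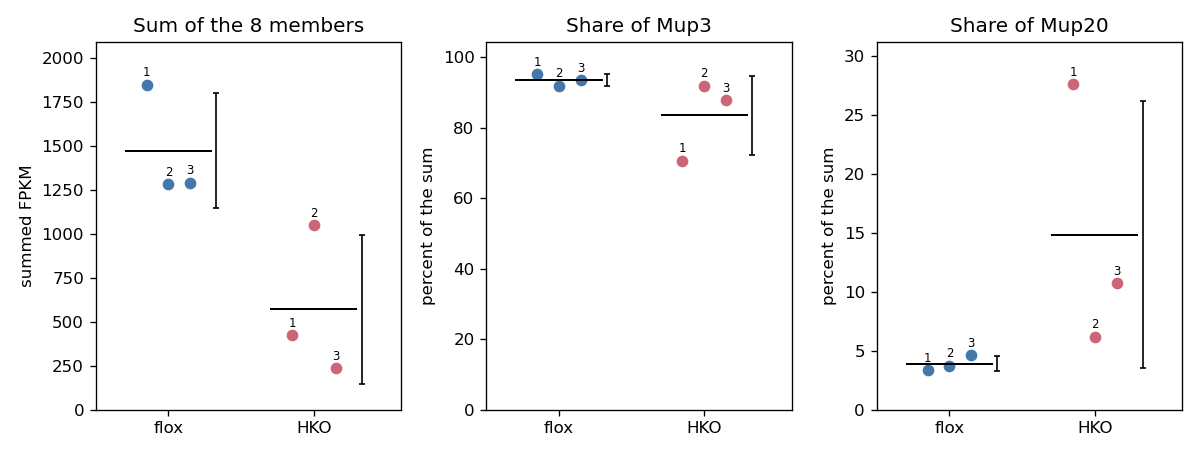
Summed FPKM of the 8 members (left) and the percentage of that sum contributed by Mup3 (middle) and by Mup20 (right) in each library. Points are libraries with their replicate number, horizontal lines are group means and bars are 1 SD (n = 3). The ACSS2-HKO sums lie between 237 and 1047 FPKM, all below the lowest ACSS2-flox sum of 1281 FPKM, and the Mup20 share is higher in every ACSS2-HKO library than in the controls.

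Mup3 carried this sum. It stood at 1761, 1178 and 1207 FPKM in the controls (54197, 40025 and 42245 fragments). In ACSS2-HKO it stood at 299, 963.5 and 208 FPKM (9654, 31584 and 7495 fragments). The groups did not overlap, which with ACSS2-HKO lower held for 2.94% of all tested genes, with replicate 2 again the highest of the ACSS2-HKO libraries and replicate 3 the lowest. Group means were 1382 ± 328 and 490 ± 412 FPKM (SD, n = 3 each), and the log2 fold change was -1.79 ± 0.51 (SE). It was -2.44 without ACSS2-HKO replicate 2 and -1.15 when ACSS2-flox replicate 1 and ACSS2-HKO replicate 3 were both left out. Its limma p was 0.00738 before adjustment and 0.607 after Benjamini-Hochberg adjustment over the 9818 genes that averaged 1 FPKM or more. Ranked by FPKM among all genes of the table, Mup3 was 39th, 50th and 48th in the ACSS2-flox libraries and 254th, 60th and 319th in the ACSS2-HKO libraries. As given above, nearly all of its transcript sequence is its own.

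Mup21, the closest relative of Mup3, was far less abundant. Its levels were 5.03, 4.74 and 3.11 FPKM in the controls and 2.06, 3.69 and 0.772 FPKM in ACSS2-HKO. The groups overlapped, since ACSS2-HKO replicate 2 exceeded ACSS2-flox replicate 3. The log2 fold change was -0.83 ± 0.34 (SE, n = 3 per group), with a limma p of 0.0406 and an adjusted p of 0.649.

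Mup20, the gene of darcin, did not share this pattern. It stood at 62.0, 47.5 and 59.6 FPKM in the controls (2065, 1747 and 2255 fragments). In ACSS2-HKO it stood at 117, 64.9 and 25.3 FPKM (4073, 2301 and 985 fragments). ACSS2-HKO replicates 1 and 2 were thus above all controls and replicate 3 was below them. The log2 fold change was 0.05 ± 0.47 (SE) with a limma adjusted p of 0.986, and its sign turned under median-ratio scaling (-0.12), under scaling by the trimmed mean of M-values (-0.12) and in 3 of the fits that left out a library (-0.46 without ACSS2-HKO replicate 1). Neither a higher nor a lower level of Mup20 was detectable with these libraries.

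The balance among the 8 members therefore differed between these libraries. Shares here are of the sum of the 8 members and not of all Mup RNA. Mup17, a Mup gene outside the 8, was above Mup20 in every control, at 98.7, 119 and 103 FPKM. Mup3 made up 95.3%, 92.0% and 93.6% of the summed FPKM in the controls and 70.7%, 92.0% and 87.8% in ACSS2-HKO. Mup20 made up 3.35%, 3.71% and 4.62% in the controls and 27.6%, 6.19% and 10.7% in ACSS2-HKO. The Mup20 shares did not overlap, with means of 3.89% ± 0.65 and 14.8% ± 11.3 (SD, n = 3 each), a difference of 10.9 percentage points that was 4.53 without ACSS2-HKO replicate 1. For each FPKM of Mup3 there were 0.0352, 0.0403 and 0.0493 FPKM of Mup20 in the controls and 0.39, 0.0673 and 0.121 in ACSS2-HKO. A share within a library does not depend on how libraries were scaled to each other. These shares were not tested.

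The members in the central array of near-identical copies were lower in mean in ACSS2-HKO, each at a low level. Mup11 stood at 10.5, 16.6 and 10.8 FPKM in the controls and at 3.40, 9.78 and 1.77 FPKM in ACSS2-HKO. Mup2 stood at 5.80, 27.9 and 5.76 FPKM in the controls and at 1.001, 2.52 and 0.849 FPKM in ACSS2-HKO. In both genes the groups did not overlap. The log2 fold change was -1.39 ± 0.45 (SE) for Mup11, with a limma p of 0.0136 and an adjusted p of 0.637. For Mup2 it was -2.22 ± 0.54 (SE), with a limma p of 0.00317 and an adjusted p of 0.554. ACSS2-flox replicate 2 held far more Mup2 than the other controls, 1114 fragments against 210 and 237, and without this library the log2 fold change of Mup2 was -1.53.

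Mup12 stood at 1.45, 2.44 and 2.02 FPKM in the controls and at 0.251, 1.05 and 0.0561 FPKM in ACSS2-HKO, again without overlap. Its log2 fold change was -1.08 ± 0.27 (SE), with a limma p of 0.00327 and an adjusted p of 0.554. Mup7 stood at 2.14, 2.77 and 1.21 FPKM in the controls and at 0.626, 1.85 and 0.146 FPKM in ACSS2-HKO, and here the groups overlapped. Its log2 fold change was -0.77 ± 0.34 (SE), with a limma p of 0.0534 and an adjusted p of 0.649. Mup7 and Mup12 had means of 0.874 and 0.452 FPKM in ACSS2-HKO and entered the test through their ACSS2-flox levels. Mup1 was near the limit of counting, at 30, 22 and 6 fragments in the controls and 7, 9 and 1 in ACSS2-HKO (0.816, 0.542 and 0.144 FPKM against 0.181, 0.230 and 0.0232 FPKM). It was not tested across genes because its mean was under 1 FPKM, and its groups overlapped.

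**Figure D3:**
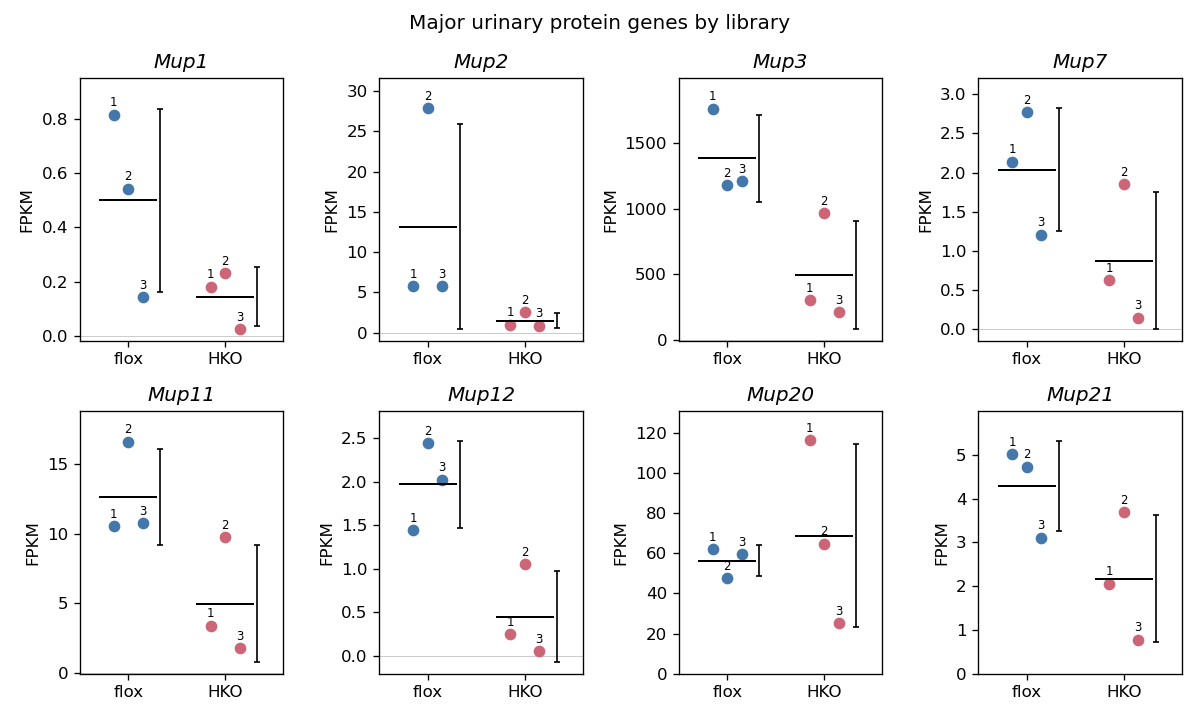
FPKM of each member in the 6 libraries, with a separate linear axis for each gene. Points are libraries with their replicate number, horizontal lines are group means and bars are 1 SD (n = 3). Mup2, Mup3, Mup11 and Mup12 do not overlap between the genotypes, Mup20 spreads from 25.3 to 117 FPKM in ACSS2-HKO around the controls, and ACSS2-HKO replicate 3 is the lowest library in all 8 panels.

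Set side by side in the controls, the order of the levels per length was Mup3, Mup20, then Mup2 and Mup11, then Mup21, then Mup7 and Mup12, and last Mup1. Mup2 and Mup11 overlapped across those 3 libraries, as did Mup7 and Mup12, and the other neighbours in this order did not overlap. In ACSS2-HKO Mup3 remained the most abundant and Mup20 the next, at 208 to 963.5 FPKM and 25.3 to 117 FPKM. Below them, Mup11, Mup21 and Mup2 overlapped in ACSS2-HKO.

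Across the 6 libraries the members other than Mup20 varied together. Pearson's r of log2(FPKM + 1) between pairs of these 7 genes ran from 0.60 to 0.97, and between Mup20 and each of them from -0.07 to 0.40. These are descriptions over 6 libraries that share their depth and scaling, and near-identical copies also share fragments.

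None of the 7 members tested passed an adjusted p of 0.05 in limma, and neither did any other of the 9818 genes (0.0%). The smallest adjusted p of all genes was 0.452. At an unadjusted p under 0.05, 5 of the 7 members were lower in ACSS2-HKO (Mup2, Mup3, Mup11, Mup12 and Mup21), against 1.5% of all tested genes, and 0 were higher, against 6.09%. The all-gene counts behind these shares, 147 lower and 598 higher, became 347 lower and 317 higher under median-ratio scaling, and 6 of the 7 members were then lower. Since Mup7 and Mup12 entered the test through the group where they were higher, these counts are descriptions only. With the filter at a mean of 5 FPKM, 4 members were tested and 3 were lower (Mup2, Mup3 and Mup11), against 2.06% of tested genes. In 4 members (Mup2, Mup3, Mup11 and Mup12) the groups did not overlap and ACSS2-HKO was lower, against 2.94% of tested genes, and 0 members had the reverse, against 12.5%. For these 4 the exact two-sided permutation p was 0.1, the smallest that 3 against 3 libraries allow. The mean FPKM of 5 members (Mup2, Mup3, Mup7, Mup11 and Mup12) was at least 2-fold lower, against 0.825% of tested genes, and here too nothing is read from Mup7 and Mup12. Mup2, Mup3 and Mup11 kept an unadjusted p under 0.05 when any single library was left out, and also when ACSS2-flox replicate 1 and ACSS2-HKO replicate 3 were both left out, when 3.78% of tested genes were lower. Copies that share fragments are not separate observations, and the members were chosen with earlier results of these data known.

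ACSS2-HKO replicate 3 was the lowest of the 6 libraries for all 7 tested members, against 17.2% of all tested genes. Within ACSS2-HKO, replicate 2 was the highest for 6 of the 7, against 37.6%. Mup20 was the exception, with replicate 1 the highest.

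Of the 7 members tested, 6 had a negative log2 fold change, against 34.0% of all tested genes. The other Mup rows of the table were also mostly lower. Of 13 further Mup genes, 11 were tested, and 11 had a negative log2 fold change. In limma 6 were lower at an unadjusted p under 0.05, against 1.5% of all tested genes, and 0 passed adjustment. Mup14, with a mean of 0.785 FPKM in ACSS2-HKO, entered the test through its ACSS2-flox level, as did Mup7 and Mup12. Copies also share fragments, so these counts are descriptions only. The median log2 fold change of these 11 genes was -1.21, beside -1.08 for the 7 members tested and 0.10 for all tested genes. Mup17, of whose 100-base stretches 40.6% are its own, stood at 98.7, 119 and 103 FPKM in the controls and at 51.5, 74.5 and 9.13 FPKM in ACSS2-HKO. Mup15 stood at 41.7, 119 and 49.2 FPKM in the controls and at 16.6, 33.2 and 2.37 FPKM in ACSS2-HKO. Neither gene overlapped between the genotypes. The log2 fold changes were -1.65 ± 0.64 for Mup17 and -2.33 ± 0.77 for Mup15 (SE), with a limma adjusted p of 0.637 for both. Mup5 and Mup6 were at 0 to 4 fragments in every library. The 2 pseudogene rows together held 186, 117 and 103 FPKM in the controls and 44.5, 52.2 and 11.03 FPKM in ACSS2-HKO. With every Mup gene counted, the sum was 2077, 1687 and 1523 FPKM in the controls and 529, 1239 and 260 FPKM in ACSS2-HKO.

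**Figure D4:**
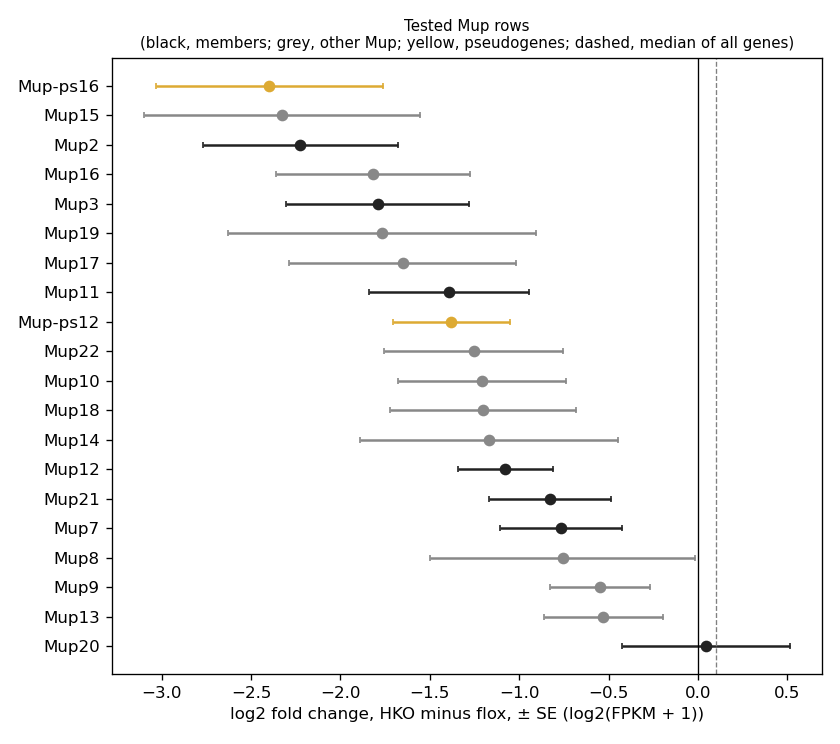
Log2 fold change (ACSS2-HKO minus ACSS2-flox, on log2(FPKM + 1)) of the 20 tested Mup rows, with bars of 1 SE from limma. Black points are members, grey points other Mup genes and yellow points pseudogenes, and the dashed line is the median of all tested genes (0.10). In all, 19 of the 20 rows lie to the left of 0, and Mup20 lies at 0.05. Mup7, Mup12 and Mup14 entered the test through their ACSS2-flox levels.

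Genes of the growth hormone pathway, some of them its targets, and hepatocyte transcription factors were read from lists chosen for the purpose. Their part in the Mup values was not tested. In the growth hormone list, 7 of 10 genes had a negative and 3 a positive log2 fold change (34.0% of all tested genes were negative), and the median was -0.06. Ghr, the growth hormone receptor, stood at 134, 95.3 and 86.1 FPKM in the controls and at 59.5, 76.5 and 56.8 FPKM in ACSS2-HKO. These levels did not overlap, with a log2 fold change of -0.69 ± 0.22 (SE) and a limma adjusted p of 0.637. Ptpn1, a phosphatase that acts on JAK2, had a log2 fold change of 0.69 ± 0.30 (SE) with an adjusted p of 0.649, and Stat5a had 0.35 with an adjusted p of 0.672. Both were higher in ACSS2-HKO without overlap, as were 12.5% of all tested genes. Stat5b, the main transducer of the hormone in liver, had -0.06 with an adjusted p of 0.959. Socs2, Cish and Igf1, targets of the pathway, had -0.22, -0.30 and -0.48, each with overlapping groups. No gene of this list passed adjustment in limma. At an unadjusted p under 0.05 there were 1 lower (Ghr) and 1 higher (Ptpn1), against 1.5% and 6.09% of all tested genes.

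Among 10 hepatocyte transcription factors the median was 0.01. Cebpb, a C/EBP factor of hepatocytes, stood at 94.0, 85.9 and 77.0 FPKM in the controls and at 45.9, 43.5 and 61.0 FPKM in ACSS2-HKO. It did not overlap, with a log2 fold change of -0.77 ± 0.19 (SE) and a limma adjusted p of 0.556. Cebpa did not overlap either, with a log2 fold change of -0.36 ± 0.17 (SE) and an adjusted p of 0.664.

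Since Mup expression differs between the sexes, sex-biased genes were set beside it. The Y-linked genes Ddx3y, Uty, Kdm5d and Eif2s3y summed to 0.0052 to 0.019 FPKM per library. Each was at 0 to 3 fragments in a library, so Y-linked RNA was near absent in all 6 libraries, as in female tissue. Of the genes known for male livers, Cyp4a12a was listed at 0 FPKM in all 3 ACSS2-flox libraries and at 0.0817, 0 and 0.0105 FPKM in ACSS2-HKO, and Moxd1 at 0.0508 FPKM or less in all 6. Others of that list were well expressed, with Gstp1 at 157 to 528 FPKM, Ugt2b1 at 74.2 to 124 FPKM and Cyp2d9 at 18.9 to 107 FPKM over the 6 libraries. Of those known for female livers, Cyp2b9 stood at 206 to 406 FPKM in the controls and 228 to 385 FPKM in ACSS2-HKO, and Cyp2a4 at 1358 to 1796 FPKM and 1104 to 1907 FPKM. For Cyp2b9 and Cyp2a4 the ranges of the genotypes overlapped, and the labels give no sex. Of 8 male-biased genes tested, 5 had a positive and 3 a negative log2 fold change (median 0.47, but -0.16 without ACSS2-HKO replicate 3), against 34.0% of all tested genes negative. 2 genes of this list that did not pass the filter, named after their values were seen, were lower in ACSS2-HKO without overlap. That pattern held for 2.94% of tested genes and for 0 of the 8 tested genes of this list. Of those 8, 1 (Gstp1) was higher without overlap, against 12.5% of tested genes. Slco1a1, an organic anion transporter, stood at 0.374, 1.80 and 1.12 FPKM in the controls and at 0.00713, 0.337 and 0 FPKM in ACSS2-HKO. Elovl3, a fatty acid elongase, stood at 0.436, 0.313 and 0.264 FPKM and at 0.129, 0.240 and 0.0770 FPKM. Slco1a1 rested on 0 to 266 fragments per library and Elovl3 on 6 to 29. Of 18 female-biased genes, 2 had a positive and 16 a negative log2 fold change (median -0.50), against the same 34.0% negative. In limma 0 of either list passed adjustment. At an unadjusted p under 0.05 the male-biased list had 1 higher gene (Gstp1), and the female-biased list 1 higher (Prom1) and 1 lower (Sult3a1). Of all tested genes 6.09% were higher and 1.5% lower at that threshold, so nothing is read from these single calls.

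Among other lipocalins, Lcn2, which binds iron carriers in the acute phase, stood at 45.9, 36.8 and 13.6 FPKM in the controls and at 403, 222 and 6099 FPKM in ACSS2-HKO. Orm1, an acute phase plasma protein, stood at 1042, 1000 and 1064 FPKM and at 1528, 1980 and 5549 FPKM. Neither gene overlapped. Their log2 fold changes were 4.79 ± 1.09 and 1.31 ± 0.44 (SE), with limma adjusted p of 0.554 and 0.637. Of 9 lipocalins tested, 6 had a positive and 3 a negative log2 fold change (median 0.46), a split close to that of all tested genes (34.0% negative), and 4 were higher at an unadjusted p under 0.05 (against 6.09%).

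The acute phase list and the markers of other cells also differed between the libraries. All 19 acute phase genes had a positive log2 fold change, 13 of them without overlap between the groups (against 12.5% of tested genes), and the median was 1.48, or 0.81 without ACSS2-HKO replicate 3. Their summed level was 5603 to 7401 FPKM in the controls and 10970, 12140 and 48660 FPKM in ACSS2-HKO. The 12 neutrophil markers summed to 8.02 to 17.4 FPKM in the controls and 38.5, 54.3 and 357 FPKM in ACSS2-HKO. S100a8 and S100a9 made up most of each sum, and only 4 of the 12 markers passed the filter. Mpo, Elane, Ngp, Camp and Ltf overlapped between the groups, and the other markers were higher in ACSS2-HKO without overlap. Ly6g was listed at 0 in every ACSS2-flox library and at 1, 7 and 40 fragments in ACSS2-HKO. The 11 macrophage markers summed to 375 to 586 FPKM and to 697 to 1722 FPKM. The 10 hepatocyte markers had a median log2 fold change of -0.31, with 9 of 10 negative, against 34.0% of all tested genes. In limma 0 of them had an unadjusted p under 0.05. They summed to 59490 to 89590 FPKM in the controls and 49890 to 58950 FPKM in ACSS2-HKO. Most of each sum was Alb, the only 1 of the 10 whose levels did not overlap between the genotypes. The part of these differences in the Mup values was not tested.

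**Figure D5:**
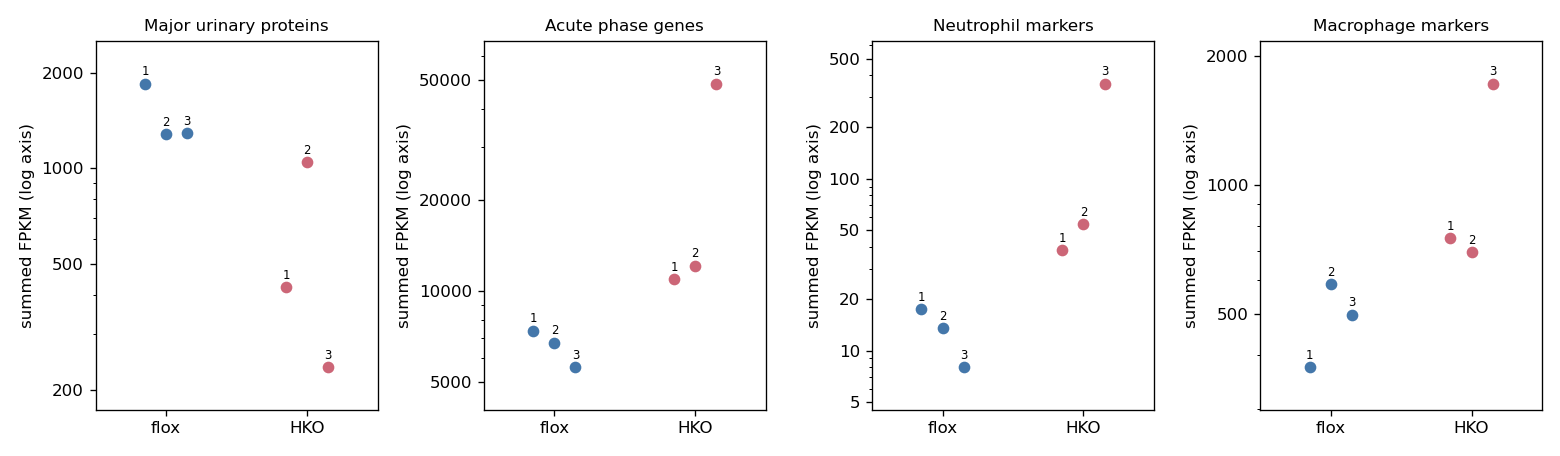
Summed FPKM per library, on log axes, of the 8 Mup members and of the acute phase, neutrophil and macrophage lists. Points are libraries with their replicate number. The Mup sum is below the controls in every ACSS2-HKO library and the other 3 sums are above them, and ACSS2-HKO replicate 3 has the lowest Mup sum and the highest of the other sums.

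Among 3823 genes of at least 10 FPKM outside the Mup family, the 5 whose log2 level most resembled the log2 Mup sum over the 6 libraries were Eif4a2 (Pearson's r 0.994), Cyp2c23 (0.988), Serpina1d (0.984), Tecr (0.984) and Fam8a1 (0.981). Their Spearman's rho lay between 0.943 and 1.0. Without ACSS2-HKO replicates 1 and 3, the libraries farthest from the median, r was 0.916, 0.999, 0.856, 0.92 and 0.941. Cyp2c23, an arachidonic acid epoxygenase, stood at 179, 147 and 148 FPKM in the controls and at 93.1, 134.6 and 56.0 FPKM in ACSS2-HKO. Serpina1d, one of the alpha-1-antitrypsin copies, had means of 2044 and 1704 FPKM, and Tecr, a reductase of fatty acid elongation, 226 and 172 FPKM. All 5 had a smaller fold difference than the Mup sum. They were picked as the highest of many over libraries that share their scaling.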

How the data were processed

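Whole-liver RNA of 3 ACSS2-flox and 3 ACSS2-HKO libraries was analysed from 1 deposited gene table. Its values are FPKM computed by the authors, as the name of the deposited table gives it, and their steps fit whole fragments divided by a length and a library total. The submitters' processing notes name the build mm10 and DESeq2 without a role, and the aligner, counter, annotation and treatment of multiply matching fragments are not stated there or in the labels. The library kit was VAHTS Universal V6, per the labels' protocols.

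Samples were grouped by the genotype label. Whole fragments were recovered from the FPKM steps (each within 0.01 of an integer) for 99.99% of genes. Library totals were 33717125 to 39474527 fragments. Log2(FPKM + 1) of the 9818 genes averaging 1 FPKM or more was tested with limma 3.58.1 (R 4.3.3, eBayes with trend, two-sided, Benjamini-Hochberg adjustment over all tested genes), and the pseudocount shrinks the fold changes of low genes. The recovery and the test were tested on simulated data. Each member also has an exact two-sided permutation p from 20 arrangements. Sums and shares over the members were not tested.

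Text names the 8 members, the other Mup genes, Acss2, up to 4 genes of smallest p or the defining markers of each list, and the 5 genes most like the Mup sum. Stat5b, Socs2 and Cish, outside this rule, were named for their role, and the ratios of central copies were chosen after their values were seen. The members and lists were chosen with earlier results of these data known. The lists were growth hormone and STAT5, hepatocyte factors, male-biased, female-biased, other lipocalins, plasma proteins, acute phase, and markers of hepatocytes, neutrophils, macrophages, endothelial and stellate cells and cholangiocytes. A further planned list is not reported here. Plasma proteins had a median log2 fold change of -0.15, endothelial markers 0.35, stellate markers 0.49 and cholangiocyte markers 0.22.

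A comparison of proteins had been planned. Coding sequences of GENCODE release 21 transcripts were compared in its place by global alignment (Biopython 1.88). For each gene the representative transcript was the one whose coding length was closest to the most common one in the family. That choice, and the letters TATATAA, were made after the sequences were seen. Promoters were from RefSeq (GRCm38.p6). Those of Mup1, Mup12 and Mup20 were not used here. Alternatives were other pseudocounts, filters and scalings, a replicate block, limma options and leaving out each library. Added after seeing the data were scaling on genes of 700 to 1300 bases, voom on recovered fragments, leaving out 2 libraries together, and the sum without Mup3.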

Additional observations from a re-analysis of the deposited data

How the results depend on the processing

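Across 19 alternatives the log2 fold changes of Mup2 (-2.93 to -1.29), Mup3 (-2.44 to -1.15), Mup7 (-1.78 to -0.27), Mup11 (-1.94 to -0.89), Mup12 (-2.88 to -0.36) and Mup21 (-1.22 to -0.36) stayed negative wherever they were tested. Mup20 was positive at 0.05 and turned to -0.12 under median-ratio scaling (-0.122) and trimmed mean scaling (-0.121). With 1 library left out it ran from -0.46 to 0.63, with -0.071 without ACSS2-flox replicate 2 and -0.037 without ACSS2-HKO replicate 2. Both scalings moved the median of all tested genes from 0.10 to -0.04. With them 347 genes were lower at an unadjusted p under 0.05 and 317 or 330 higher, against 147 and 598. These counts were 460 lower without ACSS2-flox replicate 1, 371 without it and ACSS2-HKO replicate 3, and 74 lower and 282 higher without ACSS2-HKO replicate 3. Higher genes were 917 with no filter, 311 at a filter of 5 FPKM and 277 when scaled on genes of 700 to 1300 bases. The voom fit on recovered fragments called 0 genes, with 137 lower and 560 higher unadjusted.

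With the replicate number as a block, 1 member (Mup2, adjusted p 0.0462) and 4 genes in all passed. The labels do not say whether the numbers pair the libraries. Deviations of same-numbered libraries correlated at 0.0132, 0.0032 and -0.0627, and no library correlated best with its own number. With 3 libraries per genotype, these values cannot decide whether same-numbered libraries share a batch or litter. Without any 1 library, 0 to 3 genes passed (3 without ACSS2-HKO replicate 2), 0 of them members. The log2 ratio of the Mup sums was -1.37. It was -0.20 without Mup3, -0.81 without ACSS2-flox replicate 1 and ACSS2-HKO replicate 3, and ran from -2.16 to -1.002 with 1 library left out. The difference in Mup20 share ran from 4.53 to 15.2 percentage points. List medians with 1 library left out ran from -0.109 to 0.114 for the growth hormone list, from -0.226 to 0.148 for the hepatocyte factors, from -0.163 to 0.882 for the male-biased list, from 0.392 to 0.699 for the other lipocalins and from 0.814 to 1.92 for the acute phase list. The causes of these shifts were not tested. Mup1 and Mup12 rest on as few as 1 and 2 fragments in a library.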

Other observations

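The copies of the central Mup array did not keep a fixed balance between libraries. These ratios were chosen after the values were seen. For each FPKM of Mup11 there were 0.0571, 0.551 and 0.0574 FPKM of Mup8 in the controls and 0.0656, 0.295 and 0.0805 in ACSS2-HKO, so that replicate 2 of both genotypes stood apart from the other 4 libraries. Mup8 rested on 18, 302 and 21 fragments in the controls and 7, 92 and 5 in ACSS2-HKO. For Mup14 the ratio to Mup11 was 0.081, 0.834 and 0.1 in the controls and 0.295, 0.126 and 0.0685 in ACSS2-HKO, with ACSS2-flox replicate 2 alone far above the rest (537 fragments against 30 and 43 in the other controls). Mup9 had ratios of 0.198 to 0.266 in the controls, 0.273 and 0.232 in ACSS2-HKO replicates 1 and 2, and 1.12 in ACSS2-HKO replicate 3. There Mup9 kept 69 fragments, close to the 73 and 72 of ACSS2-flox replicates 1 and 3, while Mup11 had 64 against 325 and 377. The division of shared fragments between copies is not stated, and its part in these ratios was not tested.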
